A study of Rattus norvegicus with 24 samples.

Results

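Endoplasmic reticulum (ER) chaperones and the transcription factor gene Xbp1 were followed in rat tibialis anterior muscle during daily resistance training. The group held 10 of the 15273 genes in the deposited transcript table, chosen by symbol: Hspa5, Hsp90b1, Calr, Canx, Pdia3, Pdia4, Pdia6, Xbp1, Dnajb9 and Sdf2l1. They were matched by 11 transcripts, 2 of Hsp90b1 and 1 of each other gene, and transcript values were summed per gene. RNA was sequenced from both tibialis anterior muscles of 12 adult male Wistar rats, 3 at each of 2, 10, 20 and 30 days of training. An implanted pulse generator stimulated the left leg once a day so that the muscle contracted against resistance, and muscles were taken 1 h after the last session. The right muscle of the same animal was not stimulated and served as the contralateral control. It shared the animal and the training period with its trained partner, so that a response of the whole animal would be present in both muscles.

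Proteins that enter the secretory pathway, or are built into membranes, fold in the ER with the help of chaperones and of enzymes that form disulfide bonds. When unfolded protein builds up, the sensors Ire1, Atf6 and Perk start the unfolded protein response. Ire1 splices the mRNA of Xbp1, and spliced Xbp1 and cleaved Atf6 raise the transcription of chaperone genes. In muscle fibres the sarcoplasmic reticulum is a specialised part of this membrane system that stores calcium.

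In the Rnor_6.0 coordinates of the files the transcripts, from first to last base of the gene body, lay at chr3:13838304-13842762 for Hspa5 (plus strand), chr7:27226569-27240528 for the major transcript of Hsp90b1 (minus), chr19:25956771-25961666 for Calr (minus), chr10:35800942-35833861 for Canx (minus) and chr14:85753760-85758145 for Xbp1 (plus). Pdia3 lay at chr3:113376983-113400707 (plus), Pdia4 at chr4:77470636-77489535 (minus), Pdia6 at chr6:42568220-42585652 (plus), Dnajb9 at chr6:64165913-64170151 (minus) and Sdf2l1 at chr11:88122271-88124513 (plus).

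The ER stress response element (ERSE), through which cleaved Atf6 acts on chaperone genes, reads CCAAT and CCACG with 9 bases between them, and it was looked for in the RefSeq promoter windows of the GRCr8 assembly, from 250 bases before to 50 bases after the start of each gene. Windows were held for 8 of the 10 genes, all but Pdia3 and Pdia6. Of these, 5 held an exact match on 1 of the strands (Hspa5, Hsp90b1, Calr, Canx and Xbp1), against 22 of all 33469 windows, or 0.0657%. Hsp90b1 held 2 matches. The element is known from chaperone genes, so that matches among these genes are not an independent result. The 250 bases before the start are printed 5′ to 3′ on the strand of the gene for the 5 with a match, with the fixed bases of the element in capitals, because the element is what these promoters share.
Hspa5, GRCr8 chr3:38452766-38453015, plus strand: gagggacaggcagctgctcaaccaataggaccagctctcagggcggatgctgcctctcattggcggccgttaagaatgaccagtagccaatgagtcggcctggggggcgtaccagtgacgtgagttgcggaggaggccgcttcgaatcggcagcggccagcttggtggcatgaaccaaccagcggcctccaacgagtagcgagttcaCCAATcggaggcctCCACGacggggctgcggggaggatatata
Hsp90b1, GRCr8 chr7:23012294-23012543, minus strand: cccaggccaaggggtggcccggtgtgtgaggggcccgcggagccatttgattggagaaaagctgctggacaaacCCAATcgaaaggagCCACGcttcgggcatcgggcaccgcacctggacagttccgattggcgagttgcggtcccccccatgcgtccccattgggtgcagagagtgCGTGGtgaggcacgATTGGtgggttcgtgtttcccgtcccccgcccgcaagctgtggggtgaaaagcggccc
Calr, GRCr8 chr19:40213117-40213366, plus strand: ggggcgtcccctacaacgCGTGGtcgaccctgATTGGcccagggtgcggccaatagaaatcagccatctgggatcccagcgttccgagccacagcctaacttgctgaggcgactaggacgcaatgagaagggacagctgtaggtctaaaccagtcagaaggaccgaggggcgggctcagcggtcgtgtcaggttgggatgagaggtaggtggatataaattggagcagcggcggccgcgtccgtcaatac
Canx, GRCr8 chr10:35157858-35158107, minus strand: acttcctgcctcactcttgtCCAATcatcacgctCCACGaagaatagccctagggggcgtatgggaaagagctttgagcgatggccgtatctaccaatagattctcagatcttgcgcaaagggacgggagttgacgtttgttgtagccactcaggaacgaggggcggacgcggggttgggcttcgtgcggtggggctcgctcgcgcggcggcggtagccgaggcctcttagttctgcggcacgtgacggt
Xbp1, GRCr8 chr14:84604373-84604622, plus strand: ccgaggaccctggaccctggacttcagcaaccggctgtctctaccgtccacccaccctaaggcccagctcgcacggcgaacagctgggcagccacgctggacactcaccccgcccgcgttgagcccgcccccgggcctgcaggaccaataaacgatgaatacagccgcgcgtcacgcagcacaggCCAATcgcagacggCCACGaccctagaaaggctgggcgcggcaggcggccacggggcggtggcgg
The element of Hspa5 lay nearest to the start of its gene, from 43 to 25 bases before it, and that of Xbp1 from 65 to 47 bases before. In Hsp90b1 the matches began 176 and 72 bases before the start, the second of them on the other strand. In Calr, where the match was on the other strand, and in Canx the matches began 232 and 230 bases before the start. Pdia4, Dnajb9 and Sdf2l1 held no exact match. The related element ERSE-II, ATTGG and CCACG with 1 base between them, and the Xbp1 binding element TGACGTGG were found in 0 of the 8 windows, and in 0.0508% and 0.595% of all windows, on both strands. ERSE and ERSE-II have CCACG in common. A match is a description of the letters, and binding was not measured.

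**Figure D1:**
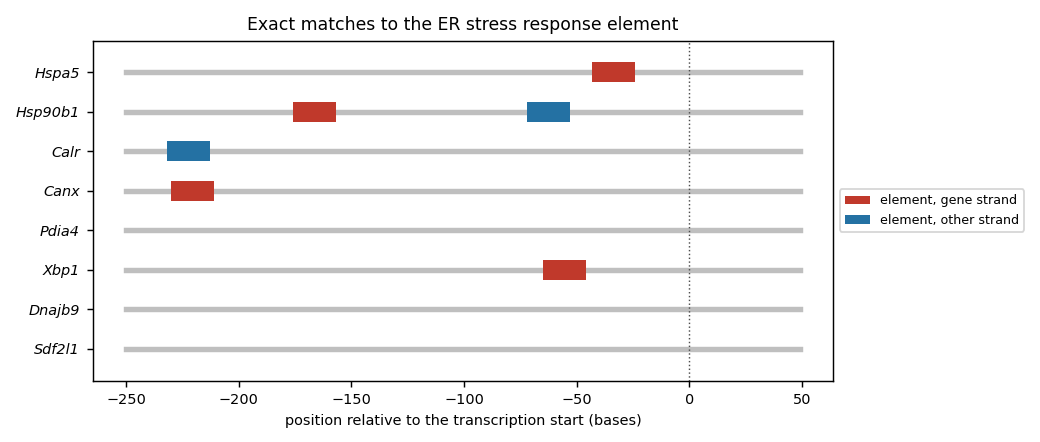
Positions of exact ERSE matches (coloured boxes) in the promoter windows of 8 genes, in bases relative to the transcription start at 0; the grey bar is the window searched. Boxes lie in 5 windows, from 232 bases before the start in Calr to 25 bases before it in Hspa5, and 3 windows hold none.

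Values were of a TPM type, scaled for transcript length, so that levels can be compared between genes; they were rescaled here between libraries (factors 0.778 to 1.14). They carry no read counts, so that the depth behind each value is unknown. The rescaling matters most for the last time point: on the values as deposited, where every library has the same total, the median log2 fold change of all genes was -0.18 at 30 days against -0.01 after rescaling, and 20.0% of changed genes were higher against 54.0%. At 2 days the share higher was 74.5% as deposited against 53.4%, and at 10 days 75.4% against 53.9%. Control replicate 1 of 30 days stood apart from the other controls, with a factor of 0.778 and 45.2% of its values in 10 transcripts. All 3 muscles trained for 30 days were like it, with factors of 0.807 to 0.915 and 42% to 44.9% in 10 transcripts, so that this trait and training for 30 days cannot be told apart. The muscle fibre genes used to check the tissue had a summed value of 77977 to 95455 in control muscles and 56298 to 98627 in trained muscles. All libraries came from whole muscle, in which more cells of a type and more RNA per cell cannot be told apart.

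In the 12 control muscles Calr, the soluble lectin chaperone that also binds calcium, had the highest level of the 10 genes, 134 ± 12.6 (SD, n = 12), and it was the 386th highest of all genes. Hspa5, the Hsp70 of the ER also known as BiP, followed at 85.4 ± 11.1 (SD, n = 12) and Hsp90b1, the Hsp90 of the ER also known as Grp94, at 47.8 ± 4.49 (SD, n = 12). These 3 kept this order in 12 of 12 muscles. Below them, the disulfide isomerase gene Pdia6, at 29.4 ± 3.95 (SD, n = 12), and Canx, encoding the membrane-bound lectin chaperone calnexin, at 29 ± 1.92 (SD, n = 12), were not ordered, since Pdia6 was above Canx in 7 of 12 muscles. Xbp1 was at 27.2 ± 2.33 (SD, n = 12) and Pdia3, the isomerase that works with calreticulin and calnexin, at 25.1 ± 3.14 (SD, n = 12), and neighbours from Canx to Pdia3 differed by less than about their spread. Dnajb9, a J-domain partner of Hspa5 and a target of Xbp1, was at 19.5 ± 2.98 (SD, n = 12). Pdia4, a further isomerase, was at 6.6 ± 1.09 (SD, n = 12). Sdf2l1, a small lumenal protein that works with J-domain partners of Hspa5, was lowest, at 1.45 ± 0.69 (SD, n = 12). Its spread was the widest for its level, 47.8% of the mean against 6.62% to 16.5% for the others.

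Sdf2l1 reached the filter of a value of at least 1 in 16 of 24 muscles, among them 13 of the 21 muscles other than those trained for 2 days, and the other 9 genes in all 24, so all 10 were tested. In a limma F test of the 4 groups of control muscles, 0 of the 10 genes passed an adjusted p of 0.05, against 7 of 10517 genes (0.0666%). Pdia6 was the 1 member with an unadjusted p under 0.05 in that test, with an adjusted p of 0.414 (limma). Its control level was 32.6 ± 2.48 (SD, n = 3) at 2 days and 26 ± 2.61 (SD, n = 3) at 30 days. Hspa5 was at 94.8 ± 9.06 (SD, n = 3) in control muscles at 2 days and 75.8 ± 6.31 (SD, n = 3) at 20 days (adjusted p = 0.483, limma F test). Differences of this size between control groups enter a comparison with pooled controls, so the same comparison was also made within animals.

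After 2 days of training all 10 genes lay above the control mean, and 9 of them had changed in the limma test against the 12 control muscles, all higher. Among all 11196 genes tested, 15.4% were called higher at 2 days and 13.5% lower. The log2 fold changes of these 9 ran from 0.28 for Calr to 0.95 for Sdf2l1, and that of Canx, which did not pass, was 0.15. The median log2 fold change of the 10 genes was 0.43, and that of all genes was -0.01. In each of the 3 animals the trained muscle was above its own contralateral muscle for each of the 10 genes, which is 30 of 30 comparisons. Of all genes tested, 26.5% were higher in the trained muscle in 3 of 3 animals.

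Hspa5 stood at 112, 135 and 103 in replicates 1, 2 and 3 after 2 days of training, where the 12 control muscles lay between 70.4 and 102 with a median of 86.4. The groups did not overlap, but the lowest trained muscle was close to the highest control. As a log2 fold change this was 0.45 (standard error, SE, 0.11; adjusted p = 0.00324, limma). Set against their own contralateral muscles, which were at 97.2, 102 and 84.8, the difference was 0.29 (SE 0.11) and did not pass with animal as a block (adjusted p = 0.0713). Hsp90b1 had values of 55.5, 69.3 and 57.5 after 2 days of training, and control muscles lay between 41.3 and 54.9 with a median of 47.1. Again all 3 trained muscles were above the controls, by a small margin in 2 of them. It gave a log2 fold change of 0.34 (SE 0.10, adjusted p = 0.00988, limma), and 0.36 within animals (SE 0.13, adjusted p = 0.0527). Of the gene's 2 transcripts, the minor one made up 8.43% ± 2.56 (SD, n = 12) of the value in control muscles and 8.71% ± 0.54 (SD, n = 3) at 2 days.

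The lectin chaperones Calr and Canx had the smallest log2 fold changes of the 10 genes at 2 days. Calr had values of 157, 176 and 157 after 2 days, and control muscles lay between 115 and 157 with a median of 132. Of the trained muscles 2 lay above all controls, and the other was just under the highest control, a muscle of 30 days. That is a log2 fold change of 0.28 (SE 0.09, adjusted p = 0.0271, limma), and 0.26 within animals (adjusted p = 0.213). Canx had values of 33, 32.7 and 30.6, with controls between 25.9 and 31.6 and a median of 28.8. Of its trained muscles 2 lay above all controls, and the log2 fold change was 0.15 (95% interval -0.04 to 0.33, adjusted p = 0.228, limma). Its ratios to the contralateral muscle, 1.15, 1.19 and 1.16, were the most even of the 10 genes.

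All 3 disulfide isomerases rose at 2 days. Pdia6 had values of 37, 48.3 and 42 after 2 days of training, all above the control range of 23.1 to 35.3 (median 29.7). As a log2 fold change this was 0.52 (SE 0.11, adjusted p = 0.00113, limma), and 0.37 within animals (adjusted p = 0.0462). Pdia3 had values of 28.7, 41.4 and 36.3, with controls between 21.2 and 31.4 and a median of 24. Here replicate 1 lay inside the control range and the other two above it. It gave a log2 fold change of 0.47 (SE 0.13, adjusted p = 0.00588, limma), and 0.56 within animals (adjusted p = 0.0198). Pdia4 had values of 7.82, 11.2 and 8.34, with controls between 4.53 and 8.15 and a median of 6.61. Replicate 2 was more than its control, at 5.30, by a ratio of 2.11, and the other two by 1.13 and 1.42. That is a log2 fold change of 0.41 (SE 0.14, adjusted p = 0.0291, limma), and 0.52 within animals (adjusted p = 0.0354).

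Dnajb9 had values of 31, 33.6 and 32.8 after 2 days of training, and control muscles lay between 12.9 and 23.9 with a median of 19.4. The 3 trained muscles were alike and clear of all controls. As a log2 fold change this was 0.72 (SE 0.13, adjusted p = 1.81e-04, limma), and 0.56 within animals (adjusted p = 0.00344). Sdf2l1 had values of 2.67, 5.58 and 2.85, with controls between 0.168 and 2.46 and a median of 1.5. All 3 lay above the controls, and replicate 2 was far above the other two. It gave a log2 fold change of 0.95 (SE 0.26, adjusted p = 0.00790, limma), which is on a scale of log2(value + 1) and understates the change of a gene at this level. Within animals it was 0.75 (adjusted p = 0.0377).

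Xbp1 itself had values of 33.5, 40.6 and 28 after 2 days, and controls lay between 23.6 and 31.3 with a median of 27. Replicate 3 was inside the control range and 1.04 times its own contralateral muscle, at 27. That is a log2 fold change of 0.30 (SE 0.11, adjusted p = 0.0441, limma), and 0.22 within animals (adjusted p = 0.314). The call was also lost with time-matched controls and without any 1 of several libraries. These were trained replicates 1 and 2 and control replicate 3 of 2 days, and control replicates 2 and 3 of 10 days. They were also control replicates 1, 2 and 3 of 20 days and control replicate 3 of 30 days. The table held 1 Xbp1 transcript, so the spliced and unspliced forms cannot be told apart in these values.

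In 5 of the 10 genes (Hspa5, Hsp90b1, Pdia6, Dnajb9 and Sdf2l1) all 3 muscles trained for 2 days lay above all 12 controls, as did 8.57% of all genes tested. Replicate 2 was the highest of the 3 muscles trained for 2 days for every member but Canx. Without that muscle 2 of the 10 genes, Pdia6 and Dnajb9, passed at 2 days in place of 9. With animal as a block 5 passed (Pdia3, Pdia4, Pdia6, Dnajb9 and Sdf2l1), and with the 3 control muscles of the same day 5 (Hsp90b1, Pdia3, Pdia4, Pdia6 and Dnajb9). Shares of all genes tested that were called under these or other alternative settings are not given, here or below. With the values given, a loss of calls particular to the members or lists therefore cannot be told from a loss among all genes.

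**Figure D2:**
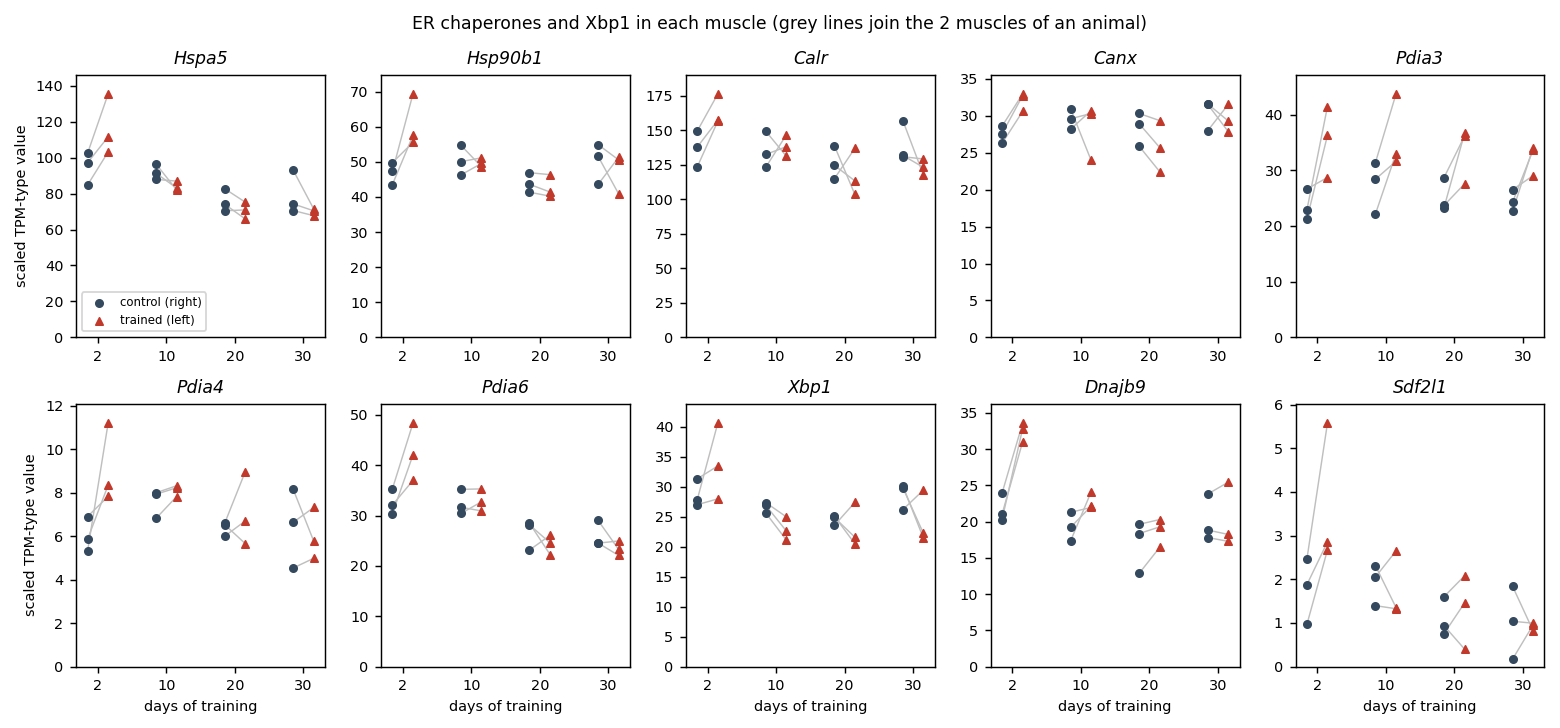
Rescaled TPM-type value of each gene (y axis, from 0) in each muscle at 2, 10, 20 and 30 days of training (x axis); circles are control muscles, triangles trained muscles, and grey lines join the muscles of an animal. All lines rise at 2 days in all 10 panels, whereas at the later time points they rise in each animal at all 3 of these only in the panel of Pdia3.

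At 10 days of training 1 of the 10 genes, Pdia3, had changed, and it was higher. Of all genes tested 15.6% were called higher and 13.3% lower. The median log2 fold change of the 10 genes was 0.12 and that of all genes -0.03. Pdia3 had values of 43.7, 31.6 and 33 in the 3 trained muscles, all above the highest control at 31.4, and its log2 fold change was 0.50 (SE 0.13, adjusted p = 0.00372, limma). Within animals it was 0.39 and did not pass (adjusted p = 0.0942), and without trained replicate 1 of 10 days 0 members passed. Hspa5 had values of 82, 83.1 and 87, inside the control range and below its own contralateral muscle in 3 of 3 animals, with a log2 fold change of -0.01 (95% interval -0.24 to 0.21). Xbp1 had values of 25, 21.1 and 22.6, of which 2 lay below all 12 controls and all 3 below their own contralateral muscles. As a log2 fold change this was -0.23 (SE 0.11, adjusted p = 0.122, limma). Dnajb9 had values of 21.9, 22.1 and 24.1, above its own contralateral muscle in 3 of 3 animals, with a log2 fold change of 0.22 (adjusted p = 0.214, limma). Pdia4 was likewise above it in 3 of 3 animals, by ratios of 1.04, 1.04 and 1.15.

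After 20 and 30 days Pdia3 was again the 1 member that had changed. Of all genes 11.7% were called higher and 9.64% lower at 20 days, and 11.1% and 9.46% at 30 days. For the 10 members the median was -0.16 at 20 days and -0.12 at 30 days on the log2 scale, and for all genes -0.03 and -0.01. Pdia3 had values of 36.6, 27.6 and 36.1 at 20 days and 29, 33.7 and 34 at 30 days. At both times 2 of 3 trained muscles were above all controls, and the trained muscle was above its own contralateral muscle in 3 of 3 animals. The log2 fold change was 0.40 at 20 days (adjusted p = 0.0250, limma) and 0.35 at 30 days (adjusted p = 0.0474, limma). Within animals the values were 0.39 and 0.38, and neither passed (adjusted p = 0.103 and 0.129). At 20 days the call was also lost without trained replicate 1 or 3.

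Hspa5 had values of 70.9, 65.9 and 75.3 at 20 days and 70.4, 71.4 and 67.7 at 30 days. Below all 12 controls lay 1 of the 3 trained muscles at 20 days and 2 of 3 at 30 days, one of the latter by a very small margin, and the others were near the low end of the control range. That amounts to -0.26 and -0.28 on the log2 scale (adjusted p = 0.0937 and 0.0754, limma). Pdia6 had values of 26.1, 24.6 and 22.3 at 20 days and 22.1, 23.3 and 24.9 at 30 days, with log2 fold changes of -0.26 and -0.31 (adjusted p = 0.108 and 0.0545, limma). The control muscles of these days were low too, at 75.8 ± 6.31 and 79.3 ± 12 for Hspa5 and 26.6 ± 2.99 and 26 ± 2.61 for Pdia6 (SD, n = 3 each). Within animals the 4 differences lay between -0.17 and -0.10. On the values as deposited 4 members (Hspa5, Calr, Pdia6 and Xbp1) were called lower at 30 days and Pdia3 was not called, with the shift of all genes given above. Among all genes 3237 were called at 30 days on those values, 20.0% of them higher, against 2304 and 54.0% after rescaling. With the intensity trend in the fit, 2 members passed at 30 days, Pdia3 higher and Pdia6 lower.

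The calls at 30 days rested on single libraries, and the adjusted p of Pdia3 was close to the threshold. Without any 1 of the muscles trained for 30 days 0 members passed, as they did without trained replicate 3 of 2 or of 10 days, or without control replicate 1, 2 or 3 of 2 days, replicate 3 of 10 days, replicate 2 of 20 days or replicate 2 of 30 days. Without trained replicate 1 or 2 of 2 days or control replicate 1 of 30 days the count was 2, Pdia3 higher and Pdia6 lower. Without control replicate 1 of 20 days it was 2, Hspa5 and Pdia6, both lower, and without control replicate 3 of 30 days it was 1, Pdia6, lower, so that Pdia3 was lost in both. The remaining members had log2 fold changes between -0.29 (Sdf2l1) and 0.05 (Dnajb9) at 30 days, and Sdf2l1 had values of 0.82, 0.95 and 0.99.

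**Figure D3:**
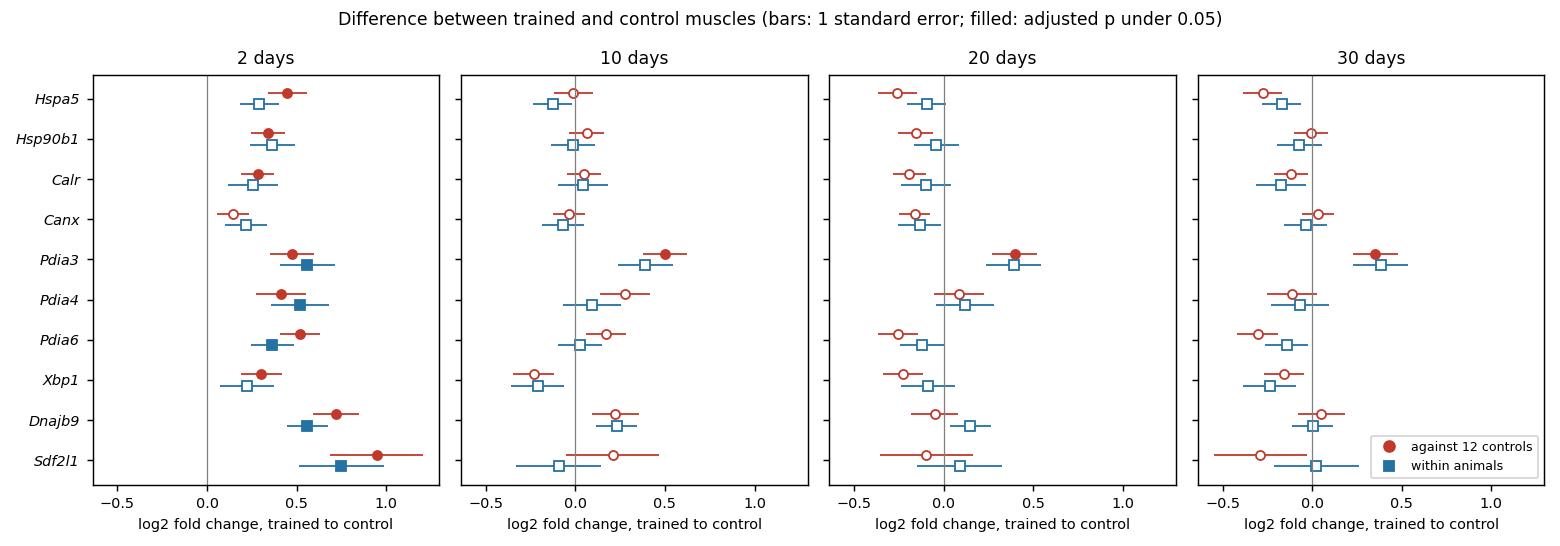
Log2 fold change of each gene at the 4 time points with 1 standard error, against the 12 control muscles (red circles) and within animals (blue squares); filled symbols have an adjusted p under 0.05. At 2 days 9 red and 5 blue symbols are filled, and at the later times the red symbol of Pdia3 is the 1 that is filled.

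Direct contrasts between trained groups asked whether levels in muscles trained for 2 days differed from those in muscles trained for longer. Control muscles do not enter these differences. From 2 to 10 days 1 member was lower, Xbp1 (log2 difference -0.54, SE 0.14, adjusted p = 0.0485, limma), where 0.849% of all genes were. From 2 to 20 days 6 of the 10 members were lower, against 4.44% of all genes: Hspa5, Hsp90b1, Calr, Pdia6, Xbp1 and Dnajb9. From 2 to 30 days 7 were lower, against 7.91% of all genes: Hspa5, Calr, Pdia4, Pdia6, Xbp1, Dnajb9 and Sdf2l1. Pdia6 had the lowest adjusted p in both, with differences of -0.78 (adjusted p = 0.00132, limma) and -0.82 (adjusted p = 4.40e-04, limma). Hspa5 fell by 0.71 and 0.72 on the log2 scale (adjusted p = 0.00217 and 0.00108, limma). Pdia3 differed by 0.03, -0.08 and -0.12 between 2 days and 10, 20 and 30 days, with 95% intervals of -0.30 to 0.35, -0.41 to 0.25 and -0.45 to 0.21. Just outside the threshold were Sdf2l1 at 20 days (-1.05, adjusted p = 0.0501) and Hsp90b1 at 30 days (-0.35, adjusted p = 0.0551).

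These contrasts compare different animals. When each trained muscle was set against its own contralateral muscle first, with animal as a block, 0 members passed in any of the 3 contrasts, and Pdia6 differed by -0.49 at 20 days (adjusted p = 0.151) and -0.51 at 30 days (adjusted p = 0.121). The nearest was Dnajb9 from 2 to 30 days (-0.56, adjusted p = 0.0777). The contrasts also leaned on trained replicate 2 of 2 days: without it 3 members passed at 20 days and 3 at 30 days, Hspa5, Pdia6 and Dnajb9 in both. Without trained replicate 1 or 2 of 30 days 4 passed at 30 days. The call of Xbp1 at 10 days was lost on the values as deposited, and without any 1 of 15 libraries: trained replicates 1 and 2 and control replicate 3 of 2 days, all 6 muscles of 10 days, trained replicate 2 and control replicates 2 and 3 of 20 days, and trained replicate 1 and control replicates 2 and 3 of 30 days.

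Across the 24 muscles the members moved together to different degrees. Over the 45 pairs of members the median Pearson r of log2 values was 0.54, from -0.03 (Canx with Sdf2l1) to 0.91 (Hspa5 with Pdia6). Once the means of the 8 groups were taken out the median was 0.37. Before that step Pdia3 was least like the rest, with a median r of 0.27 with the other members, and Hsp90b1 most, at 0.70. After it Pdia3 was at 0.45, Hsp90b1 was still highest, at 0.54, and Sdf2l1 was lowest, at -0.10. These are descriptions over muscles that share animals and libraries.

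Among 3833 other genes with a mean of at least 10, those most like the mean standardised level of the members over the 24 muscles were Hnrnpdl (Pearson r = 0.89), P4hb (0.88), Cdc37l1 (0.85), Nexn (0.85) and Dnajb11 (0.84). P4hb encodes the main protein disulfide isomerase and Dnajb11 a J-domain co-chaperone of Hspa5 in the ER lumen, Cdc37l1 a relative of the Hsp90 co-chaperone Cdc37, Hnrnpdl an RNA-binding protein and Nexn an actin-binding protein of muscle. Over the 12 control muscles alone r was 0.79, 0.62, 0.35, 0.68 and 0.68 in that order. The mean standardised level was 1.12 to 2.29 in muscles trained for 2 days and -0.99 to 0.50 in the others. Genes chosen for likeness to it are therefore apt to be higher at 2 days, and this is no independent result. All 5 were higher then, with log2 fold changes of 0.44, 0.60, 0.78, 0.74 and 0.40 in the same order. Dnajb11 did not pass with animal as a block (adjusted p = 0.0858, limma), with time-matched controls (0.132) or without trained replicate 2 of 2 days (0.0843), and the other 4 did. P4hb went from 67.2 ± 3.87 (SD, n = 12) in control muscles to a mean of 103 at 2 days and was at 66.8 at 30 days.

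Other genes of the ER were counted in lists, beside which stand the shares of all genes called at the same time. Of 29 tested genes for lumenal co-chaperones and folding helpers, 12 rose and 0 fell at 2 days (41.4% and 0%, against 15.4% and 13.5% of all genes), with a median log2 fold change of 0.26, and 8, 7 and 5 were higher at 10, 20 and 30 days with 1, 2 and 3 lower. Serpinh1, the collagen chaperone Hsp47, rose from a control mean of 39.3 to 85.3, 98, 75.1 and 60.4 at the 4 time points (log2 fold changes 1.07, 1.30, 0.92 and 0.61). Ppic, a prolyl isomerase, rose by 0.70, 1.51, 1.11 and 0.59 on the log2 scale. The calcium-binding proteins Rcn1 and Rcn3 rose to log2 fold changes of 0.73 and 0.89 at 2 days, and at 30 days that of Rcn3 was 0.47 (adjusted p = 0.0737, limma). Hyou1, the large Hsp70 relative of the ER, was at 0.23 at 2 days (adjusted p = 0.0579) and fell by 0.30 at 30 days (adjusted p = 0.0199, limma).

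Creld2 and Dnajc3, further genes whose RefSeq promoter window held an exact ERSE match, were among the folding helpers. Of the 21 gene symbols with a match, 5 were members and 4 were other ER genes of the lists. Besides these 2 they were Derl3 and Ero1b, which were not among the genes tested. Creld2 had a log2 fold change of 0.65 at 2 days (adjusted p = 0.00308, limma) and -0.15 at 30 days (adjusted p = 0.545). Dnajc3 was at 0.25 at 2 days (adjusted p = 0.0632) and fell by 0.51, 0.51 and 0.36 at 10, 20 and 30 days (adjusted p = 4.39e-04, 6.63e-04 and 0.0133, limma).

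Of 20 tested genes for oxidative folding and other disulfide isomerases, 9 rose and 1 fell at 2 days (45% and 5%), with a median log2 fold change of 0.35. Besides P4hb (0.60 at 2 days, adjusted p = 2.89e-06, and 0.24 at 10 days, adjusted p = 0.0250, limma), Erp29 rose to 12.6 from a control mean of 7.02 at 2 days and was at 8.36 at 30 days. Qsox1, a sulfhydryl oxidase, and Selenom, a selenoprotein of the ER, were higher at all 4 time points. Sumf2 fell at all 4, from a control mean of 42.7 to 18.8 at 2 days and 25.8 at 30 days. Ero1a, the oxidase that recharges the isomerases, had log2 fold changes between -0.12 and 0.11 and did not pass. The list had 6, 2 and 3 genes higher at 10, 20 and 30 days and 1 lower at each.

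Of 24 tested genes of the translocon and of signal peptide processing, 7 rose and 2 fell at 2 days (29.2% and 8.33%). Sec61b and Spcs3 rose by 0.89 and 0.65 on the log2 scale at 2 days and had values of -0.03 and -0.02 at 30 days. The paralogs Sec61a1 and Sec61a2, alternative forms of the channel, went opposite ways, with 0.77 and -0.59 at 2 days (adjusted p = 4.39e-04 and 7.77e-05, limma). Of the list 4, 1 and 1 genes were higher at the later times and 5, 4 and 2 lower. Of 25 genes of the lectin cycle and N-glycosylation 3 rose at 2 days and 0 fell (12% and 0%, both under the shares of all genes), namely Ddost (0.71) and Ostc (0.60), both of the oligosaccharyltransferase, and Uap1 (1.39), an enzyme of amino sugar synthesis that was higher at all 4 time points. At 10, 20 and 30 days 3, 1 and 1 were higher and 3, 3 and 5 lower, Alg2 among the latter.

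Of 33 genes of ER-associated degradation 3 rose and 4 fell at 2 days, and these shares, 9.09% and 12.1%, were under those of all genes. Later 3, 0 and 0 rose and 8, 7 and 7 fell, where 24.2%, 21.2% and 21.2% lower stood against 13.3%, 9.64% and 9.46% of all genes. Herpud1, a degradation factor induced by ER stress, fell at 2 days from a control mean of 59.9 to 47.3 (log2 fold change -0.34, adjusted p = 0.0198, limma). Svip, an inhibitor of this degradation, fell by 0.86 on the log2 scale at 2 days, and Herpud2 fell at all 4 time points. Selenok and Ube2g2 fell by 0.45 and 0.51 at 30 days.

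Of 13 tested genes for sensors, their proteases and partners, 1 rose and 2 fell at 2 days (7.69% and 15.4%, under and near the shares of all genes). Ern1, encoding Ire1, had log2 fold changes between -0.21 and 0.13, and Atf6 between -0.11 and 0.22, and neither passed at any time. Eif2ak3, encoding Perk, was below the filter, with values of 0.235 to 0.896 in the 24 muscles. Creb3, a membrane-bound transcription factor, was at 0.36 at 2 days (adjusted p = 0.0100, limma), Mbtps1, the site-1 protease that cleaves Atf6, fell by 0.34 (adjusted p = 0.0266, limma), and Nfyb, a subunit of the factor that binds CCAAT, fell by between 0.69 and 0.73 at all 4 time points. At 10, 20 and 30 days 1, 1 and 0 of these genes were higher and 2, 2 and 2 lower, Nfyc among the latter at 20 and 30 days (-0.34 and -0.35).

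Of 14 genes of the Perk and integrated stress response arm 5 rose and 3 fell at 2 days (35.7% and 21.4%), and 4 rose at each later time, with 5, 3 and 4 lower. Atf3, a stress-induced transcription factor, went from a control mean of 5.89 to 285, 345, 154 and 122. Ddit3, encoding Chop, went from 14.2 to 55.3, 46.8, 58.8 and 36.3, and Ppp1r15a, encoding the phosphatase subunit Gadd34, from 21.6 to 69.6, 66.3, 60.7 and 46.9. Chac1, a glutathione-degrading enzyme and target of the same arm, fell from 13.7 to between 2.29 and 4.28. Atf4, a further transcription factor of the list, was at 0.26 on the log2 scale at 2 days (adjusted p = 0.0425, limma). It was at -0.32, -0.53 and -0.45 at 10, 20 and 30 days (adjusted p = 0.0106, 1.74e-04 and 0.00117, limma).

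Of 15 genes for calcium handling by the sarcoplasmic reticulum 3 rose and 6 fell at 2 days (20% and 40%), with a median log2 fold change of -0.24, and 2, 0 and 0 rose and 3, 6 and 5 fell later. Casq2, the calsequestrin of slow and cardiac muscle, went from 14.5 to 37.7 at 2 days, 46.5 at 10 days and 15.6 at 30 days. Jph2, which ties the reticulum to the transverse tubule, fell from 120 to 70.6 at 2 days and 43.9 at 30 days, and Jph1 from 85.5 to 42.8 at 30 days. Sln, encoding sarcolipin, a regulator of the calcium pump, was at 0.63 in control muscles and 7 at 10 days (log2 fold change 1.81, adjusted p = 0.00487, limma).

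These counts of list genes leaned on trained replicate 2 of 2 days, as those of the members did. Without it 4 folding helpers rose at 2 days in place of 12, 4 genes for oxidative folding in place of 9 and 3 of the translocon list in place of 7. With animal as a block these counts were 11, 7 and 5. The 6 genes for calcium handling that fell at 2 days became 3 with the block and 1 without that replicate. The 8, 7 and 7 genes of ER-associated degradation that fell at 10, 20 and 30 days became 3, 3 and 4 with the block.

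The split between higher and lower list genes also moved with the scaling, as that of all genes did. On the values as deposited the folding helpers had 14 genes higher and 0 lower at 2 days, and 12 and 1 at 10 days. At 30 days they had 1 higher and 6 lower in place of 5 and 3, with a median log2 fold change of -0.25 in place of -0.05. With the block 2 were higher and 1 lower at 30 days, and with time-matched controls 1 and 1. For oxidative folding the counts as deposited were 10 higher and 1 lower at 2 days, 9 and 1 at 10 days and 2 and 4 at 30 days, and with the block or time-matched controls 1 and 1 at 30 days. The translocon list had 8 and 1, 4 and 2, and 0 and 6 as deposited at 2, 10 and 30 days, and the lectin list 6 and 0, 3 and 1, and 1 and 6. For ER-associated degradation they were 4 and 1, 3 and 3, and 0 and 11, for the sensors 1 and 1, 1 and 1, and 0 and 4, for the Perk arm 6 and 2, 4 and 3, and 4 and 4, and for calcium handling 3 and 2, 3 and 1, and 0 and 8. Which direction had more genes therefore depended on the scaling for the folding helpers and for oxidative folding at 30 days. It also did so for ER-associated degradation and calcium handling at 2 days, and for the translocon list, the Perk arm and calcium handling at 10 days.

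The genes named from the lists, Atf4 aside, had 101 calls over the 4 time points. Of these calls 0 changed direction with the block, with time-matched controls, on the values as deposited or without trained replicate 2 of 2 days. With the block 18 calls were lost: Sec61b, Herpud2, Mbtps1 and Creb3 at 2 days, P4hb, Erp29, Sec61b and Selenok at 10 days, Sec61a1, Sec61a2, Selenok and Ube2g2 at 20 days, and Hyou1, Ppic, Serpinh1, Selenom, Ube2g2 and Nfyc at 30 days. Without trained replicate 2 of 2 days 9 calls were lost, those of Creld2, Ppic, Rcn1, Ostc, Herpud1, Herpud2, Mbtps1, Creb3 and Jph2 at 2 days. On the values as deposited 14 were lost, Herpud1 and Jph2 at 2 days among them, and with time-matched controls 20.

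**Figure D4:**
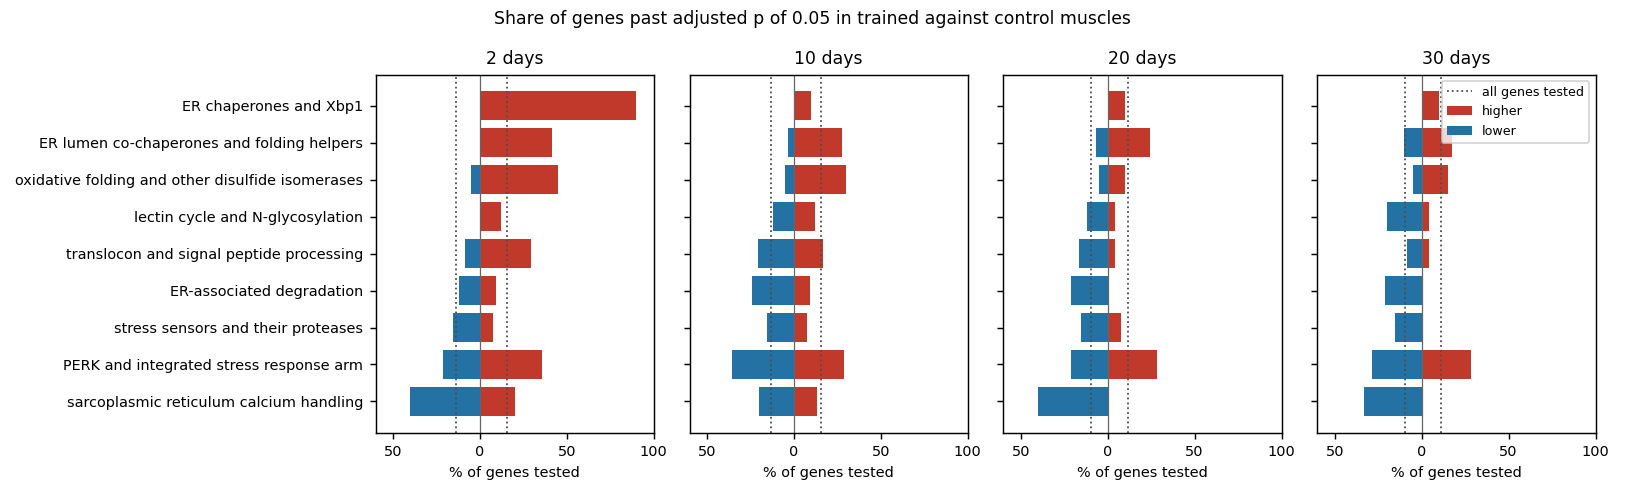
Percent of tested genes in each list with an adjusted p under 0.05 at the 4 time points, higher (red, to the right) or lower (blue, to the left); dotted lines give the same for all genes tested. At 2 days 9 of 10 ER chaperones and Xbp1 are higher, and at 10, 20 and 30 days 1 of 10.

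Markers of other cells moved with training too. Of 14 macrophage markers 12 were tested and 10, 11, 12 and 12 were higher at 2, 10, 20 and 30 days. Their summed value lay between 20.4 and 48.4 in control muscles and between 74.7 and 188 at 2 days, 63.5 and 137 at 10 days, 89.1 and 101 at 20 days, and 86.2 and 116 at 30 days. Of 9 fibroblast markers 7, 8, 8 and 8 were higher, with a sum of 81.5 to 273 in control muscles, 319 to 532 at 2 days, 546 to 1026 at 10 days, 589 to 643 at 20 days and 379 to 444 at 30 days. Of 9 endothelial markers 0 were higher and 1 lower at 2 days, and 3, 5 and 3 were higher later, with a sum of 52.6 to 71.2 in control muscles, 54.4 to 58.5 at 2 days and 62.2 to 106 after that. Of 8 pericyte and smooth muscle markers 4, 4, 3 and 2 were higher, and 1 was lower at 2 days. Their sum was 1798 to 2616 in control muscles and 2947 to 4309 at 2 days. It was 3535 to 4356 at 10 days, 2003 to 3604 at 20 days and 2350 to 2778 at 30 days. This list holds Des, a gene that muscle fibres express too, so that its sum is not particular to these cells. Of 6 tested satellite cell markers 2 were higher and 1 lower at 2 days, and the sum was 27.9 to 47.6 in control muscles and 29.4 to 42.2 at 2 days. The B and plasma cell list, a cell type rich in ER, had 3 of its 8 genes in the table, with Jchain and Cd79a at 0 in at least 12 muscles and a sum of at most 1.38 in any muscle. The part of these cells in the changes of the chaperones was not tested.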

How the data were processed

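Poly-A RNA of 24 rat muscles was sequenced in paired ends on directional libraries. The authors trimmed the reads, aligned them with STAR to Rnor_6.0 (rn6) in Partek Flow and quantified Ensembl transcripts, and the values they deposited are of a TPM type: they are corrected for transcript length and have the same total in every library, so counts and depth are not kept. The authors' methods name median-of-ratios scaling, and DESeq2 is among the tools in their processing notes, but no count model was run here. A gene-level table and a table of the authors' own fold changes and p-values were not used.

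Here transcript values were divided by median-of-ratios factors (16230 transcripts above 0 in all libraries), summed by symbol and taken as log2(value + 1). Genes with at least 1 in at least 3 muscles (11196, among them all 10 members) entered a limma fit (version 3.58.1, R 4.3.3) with 12 pooled control muscles and 4 trained groups of 3 as in the study, Benjamini-Hochberg adjustment over all genes and a threshold of 0.05. The muscles of an animal deviated together from their group means (median r 0.174, 12 pairs, against -0.100 for 24 pairs of different animals of the same day), and the labels give the animal, so values with animal as a block are given where they change a call. The p-values treat the muscles as separate samples, although the controls come from the animals of the trained muscles. No pair of libraries, of 276, was identical.

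The members and gene lists were chosen with earlier results of these data known. Named were all members, from each list up to 4 genes called at any time with the largest change and a mean of at least 5, and P4hb, Hyou1, Herpud1, Ern1, Atf6, Eif2ak3 and Ero1a. Creld2 and Dnajc3 were named later, after their values were seen, for their promoter element. Atf4 was also named later, after its values were seen. Transcript coordinates in the files are of Rnor_6.0, and promoter sequences are of GRCr8 from RefSeq. Python 3.11.15, numpy 2.4.6, pandas 2.3.3 and matplotlib 3.10.9 prepared tables and plots. Alternatives were the values as deposited, a pseudocount of 0.1, no filter, a mean of at least 10, the top transcript per gene, an intensity trend, time-matched controls, animal as a block and each muscle left out in turn.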

Additional observations from a re-analysis of the deposited data

Results flagged for a closer look

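The direct tests between trained groups passed an adjusted p of 0.05 (limma) for 14 results, each a difference between muscles trained for 2 days and for longer, and each lower in the longer trained group. For 10 days this was Xbp1, with a log2 difference of -0.538. For 20 days the differences were -0.708 for Hspa5, -0.497 for Hsp90b1, -0.474 for Calr, -0.775 for Pdia6, -0.531 for Xbp1 and -0.771 for Dnajb9. For 30 days they were -0.724 for Hspa5, -0.402 for Calr, -0.526 for Pdia4, -0.824 for Pdia6, -0.463 for Xbp1, -0.670 for Dnajb9 and -1.239 for Sdf2l1. None of the 14 passed when each muscle was first set against the contralateral muscle of the same animal. Groups of 3 or of 12 muscles were not tested for single muscles far from the others.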

How the results depend on the processing

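The count at 2 days was 9 in the main comparison. It was also 9 with the values as deposited, the other pseudocount, no filter, the top transcript or an intensity trend. With a mean of at least 10 it was 7, and Pdia4 and Sdf2l1, with means of 7.09 and 1.69, were not tested under that filter. It was 5 with time-matched controls and 5 with animal as a replicate block. Leaving out 1 muscle at a time gave 2 to 9, the lowest without trained replicate 2 of 2 days.

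The counts of 1 at 10, 20 and 30 days became 0, 0 and 0 with time-matched controls and 0, 0 and 0 with animal as a replicate block. With single muscles left out they lay between 0 and 1, 0 and 1, and 0 and 2. With the deposited values unscaled it was 0 at 20 days. At 30 days it was 4 on the values as deposited, 0 with a pseudocount of 0.1, 0 with no filter, 0 with the top transcript, 2 with a mean of at least 10 and 2 with an intensity trend.

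Between muscles trained for 2 and 10 days the count of 1 was 0 on the values as deposited, with a pseudocount of 0.1 and with the top transcript, and 2 with a mean of at least 10. Between 2 and 10, 2 and 20 and 2 and 30 days it was 0, 0 and 0 with time-matched controls and 0, 0 and 0 with animal as a replicate block. Leaving out single muscles gave 0 to 1, 3 to 7 and 3 to 8. Among control groups the count was 0 in every setting run. Among the members no call other than those named here and in the report changed with the block. The gene lists were recomputed with time-matched controls, the block, the values as deposited and without trained replicate 2 of 2 days only. The cause of these differences was not tested.

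No member past the threshold changed direction under any of these settings, but 14 log2 fold changes of members that had not passed did so in at least 1 setting, 39 times in all. On the values as deposited the log2 fold change of Hspa5 at 10 days was 0.107, that of Canx was 0.081 at 10 days and -0.186 at 30 days, and that of Dnajb9 at 30 days was -0.163. Time-matched controls and the replicate block gave the same values: -0.014 for Hsp90b1 and -0.094 for Sdf2l1 at 10 days, 0.148 for Dnajb9 and 0.088 for Sdf2l1 at 20 days, -0.038 for Canx and 0.022 for Sdf2l1 at 30 days, and -0.170 for Pdia3 between 2 and 10 days. With single muscles left out, values at 10 days ran from -0.038 to 0.011 for Hspa5, -0.097 to 0.076 for Canx and -0.007 to 0.318 for Sdf2l1. At 20 days they ran from -0.073 to 0.218 for Pdia4, -0.111 to 0.032 for Dnajb9 and -0.341 to 0.227 for Sdf2l1, and at 30 days from -0.065 to 0.095 for Hsp90b1, -0.016 to 0.071 for Canx and -0.116 to 0.151 for Dnajb9. Between trained groups they ran from -0.116 to 0.143 for Pdia3 and -0.227 to 0.006 for Pdia4 at 10 days and from -0.219 to 0.051 for Pdia3 at 20 days.

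Depth is unknown for values of this kind, so that counting error cannot be given, and it weighs most on Sdf2l1, which lay near the filter. Each trained group held 3 muscles. Spliced Xbp1 and protein were not measured.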
